A study of Mus musculus with 6 samples.

Results

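Cytosolic ribosomal proteins are the protein subunits of the ribosomes that translate nuclear-encoded mRNA. On the array used here they were taken as the probe sets annotated with exactly 1 gene symbol that begins with Rpl or Rps and a digit, or is Rplp with a digit or Rpsa, leaving out the Rps6k kinases and pseudogenes. This gave 106 probe sets for 50 genes, out of 34958 probe sets with 1 symbol, which cover 18194 genes. Of 31 small subunit and 46 large subunit genes in fixed lists, 21 and 22 had such a probe set. The other 34 did not: 27 were found only on probe sets that carry several symbols, and 7 on none. The remaining genes were 6 paralogues (Rpl3l, Rpl7l1, Rpl22l1, Rpl39l, Rps4l and Rps27l) and Rps19bp1, a gene for an Rps19-binding protein that is not a ribosomal subunit and entered by its symbol.

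The study asked how a parsley diet bears on experimental colitis. Male C57BL6/J mice, 7 weeks old, formed 3 groups of 7. CON mice had basal diet and plain water throughout. DSS mice had basal diet, with plain water for 7 days and then drinking water with 1.5% (w/v) of dextran sodium sulphate, which damages the colon epithelium. DSSPAR mice had a basal diet with 2% parsley from the start and the same sulphate solution after the plain water. The labels give the length of sulphate treatment as 10 days for DSS in one field. Another field gives 9 days, worded after the DSSPAR group. Whether the groups differed in this length is not clear from the labels. If they did, it cannot be told apart from the parsley diet in DSSPAR against DSS. The RNA was pooled over each group's 7 mice, so colon and liver gave 6 arrays, 1 per group and tissue. No test or replicate error exists for any value here, and differences between groups cannot be told apart from differences between pools or arrays. There was no group given parsley without the sulphate.

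A ribosome has a small subunit, which reads the mRNA, and a large subunit, which joins amino acids. Each carries 1 copy of most of its proteins, and their mRNAs are among the most abundant in any cell. Many of these mRNAs begin with a run of pyrimidines, the 5' terminal oligopyrimidine tract, through which the mTOR pathway and Larp1 set their translation. Small and large subunits are assembled in the nucleolus by a large set of biogenesis factors.

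Sequences at the annotated start sites are shown because such a tract is the feature best known to be shared by these mRNAs. RefSeq starts on build GRCm38.p6 were given for 44 of the 50 genes. A C at the start followed by at least 4 bases C or T was found in 8 of the 44 (18.2%), against 3.01% of 27025 genes. A run of at least 8 bases C or T within the stretch from 10 bases before the start to 10 bases from it was found in 15 (34.1%), against 8.71%. The motif CGGAAG, searched on both strands and so also as CTTCCG, lay within 300 bases around the start of 31 of the 44 genes (70.5%), against 18.8% of all. In the windows below, each of 15 bases before the start and 15 from it, capitals mark the longest run of C or T within that same stretch. Runs that go on past its edges are capitalised only inside it, as in Rpl35, Rpl22l1, Rpl13a and Rps27l. The first 4 genes have a C at the start with the run. The last 4 were among the genes with the lowest liver ratios described later.
Rpl35, chr2:39005117-39005146, minus strand: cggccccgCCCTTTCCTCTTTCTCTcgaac
Rps18, chr17:33955651-33955680, minus strand: tacgtcacttccgCTCTCTCTTCCacagga
Rps10, chr17:27635230-27635259, minus strand: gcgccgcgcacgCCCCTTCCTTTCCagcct
Rps6, chr4:86857353-86857382, minus strand: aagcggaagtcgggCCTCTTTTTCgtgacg
Rpl22l1, chr3:28805493-28805522, plus strand: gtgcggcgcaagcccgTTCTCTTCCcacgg
Rps7, chr12:28635939-28635968, minus strand: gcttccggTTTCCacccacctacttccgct
Rpl13a, chr7:45128731-45128760, minus strand: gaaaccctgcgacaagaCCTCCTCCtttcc
Rps27l, chr9:66946071-66946100, plus strand: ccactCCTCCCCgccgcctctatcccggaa
The run begins at base 2 of the annotated transcript in Rpl22l1 and at base 3 in Rpl13a, so a strict rule misses both. Rps27l has a further annotated start, which is not shown.

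Most of these genes gave strong signals, with 38 of 50 in colon and 39 of 50 in liver in the brightest 10 percent. Intensities under a floor, the median over all probe sets of the 3 arrays of a tissue (25.1 in colon and 96.6 in liver), were taken as not measured. Of the 106 probe sets, 91 lay above it in all 3 colon arrays and 89 in all 3 liver arrays. In colon 73 of them were in the brightest 10 percent of the array, and 64 in the brightest 1 percent. In liver these counts were 74 and 47. The Rps29 probe set gave the highest intensity of the whole array in colon CON, DSS and DSSPAR (10614, 10953 and 10954), and whether it was saturated was not tested. Each gene was represented by its brightest probe set. Rps16 and Rpl3l were below the floor in every array, and Rpl39l in every colon array, which left 47 genes measured in colon and 48 in liver, or 47 where Rpl39l was below the floor in both liver arrays. In colon 9 of the measured genes, and in liver also 9, had no probe set in the brightest 10 percent. Of these, 6 in colon and 5 in liver also appear on a probe set with several symbols that is in the brightest 10 percent, so a dim value need not stand for the transcript. A further limit is that 71 of the 106 probe sets are of the shared types (suffix _a, _s or _x), which can bind transcripts of related genes or pseudogenes.

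In colon, ribosomal protein genes differed little between DSS and CON. The median log2 ratio was 0.064 over 47 genes (quartiles -0.0096 and 0.13), against 0.0425 over all 11952 genes measured. It turned below 0 when the arrays were centred on other bright probe sets. A higher value in DSS was seen for 33 of 47 genes, against 54.1% of all genes. None was at least 2-fold higher, where 5.18% of all genes were, and 1 was at least 2-fold lower, where 1.97% were. At 1.5-fold none was higher and 2 were lower, where 12.8% and 7.75% of all genes were. The 2-fold lower gene was Rps27, a zinc-binding protein of the small subunit, on a dim probe set that read 86.5 in CON, 36.6 in DSS and 77.3 in DSSPAR. Without the genes outside the brightest 10 percent no member passed 2-fold in any colon comparison.

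Genes with clear signals moved little. Rps20, a protein of the small subunit head, read 8507 in CON and 7092 in DSS, a log2 ratio of -0.26. Rpl27, a large subunit protein, read 3324 and 4467 (0.43), and Rps27l, the p53-induced paralogue of Rps27, read 2490 and 3179 (0.35). The 4 paralogues measured in colon all lay above 0, from 0.15 in Rpl22l1 to 0.46 in Rps4l. Rps6, the subunit phosphorylated by the S6 kinases, read 471.6 and 417.1 (-0.18). Rps19, the subunit most often mutated in Diamond-Blackfan anaemia, read 3882 and 4218 (0.12).

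**Figure D1:**
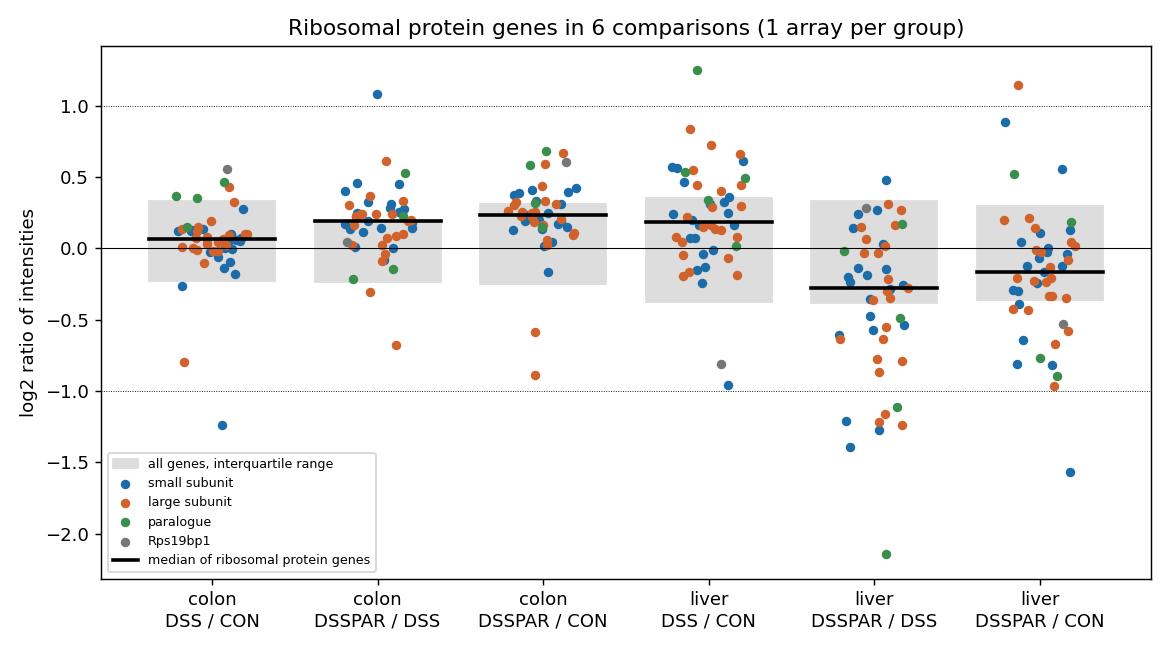
Log2 ratio of intensities (vertical axis) for each ribosomal protein gene (points, coloured by subunit) in the 3 comparisons within colon and the 3 within liver (horizontal axis). Grey boxes are the interquartile range of all genes measured, black bars the median of the ribosomal protein genes, and dotted lines 2-fold. The medians lie above 0 in colon DSSPAR against DSS (0.19) and below 0 in liver DSSPAR against DSS (-0.28). The bars for colon DSS against CON and liver DSSPAR against CON change side under another scaling.

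Against DSS, the colon of parsley-fed mice gave slightly higher values for most ribosomal protein genes. The median log2 ratio of DSSPAR to DSS was 0.19 (quartiles 0.056 and 0.28), against -0.013 over 11730 genes. It lay above 0 for 40 of 47 genes, against 48.3% of all genes. Of the 47 genes, 32 lay within 1.2-fold. That share over all genes is not given, but their quartiles were -0.23 and 0.19, so small ratios were common there too. At least 2-fold higher was 1 gene (Rps27, 1.08, the dim probe set above), where 0.392% of all genes were. None was at least 2-fold lower, where 1.24% were. At 1.5-fold 2 were higher and 1 lower, where 3.21% and 6.1% of all genes were. The median was 0.22 in the small subunit and 0.20 in the large subunit. Over the 38 genes in the brightest 10 percent it was 0.23, with 36 above 0, and over the 9 measured genes outside them -0.092, with 4 above 0. With unshared probe sets alone, 22 genes had a median of 0.034, and 12 lay above 0. Of the 38 bright genes, the 5 represented by an unshared probe set had a median of 0.24, and all 5 lay above 0.

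Rpl37, a zinc-binding large subunit protein, read 802.4 in CON, 790.9 in DSS and 1206 in DSSPAR, a ratio of 0.61 over DSS. DSSPAR was the high array and the others nearly equal. Rpl22l1, a paralogue of Rpl22 that can take its place, read 2316, 2571 and 3709 (0.53 over DSS), and Rpl22 itself 5677, 6490 and 7675 (0.24). On these probe sets both members of that pair had the order DSSPAR, DSS, CON from high to low, as had 27 of 47 measured genes. Another Rpl22 probe set kept this order, with 3240.3 in CON, 3824.5 in DSS and 4735.2 in DSSPAR. The dimmest Rpl22 probe set did not, with 502.5 in CON, 266.8 in DSS and 371.7 in DSSPAR. Rps18, of the small subunit head, read 6431, 6405 and 8452 (0.40), and Rps20 read 8507, 7092 and 9732 (0.46). The 9 measured proteins of the small subunit head all lay at or above 0, from 0.0001 in Rps29 to 0.46 in Rps20. Rpl11, which with the 5S rRNA can bind Mdm2, read 4482, 4486 and 5639 (0.33). Rpsa, also known as a laminin receptor, read 5422, 5607 and 6825 (0.28). Rplp0 and Rplp2, of the stalk that recruits elongation factors, were nearly level between DSS and DSSPAR, at 0.069 and -0.042. Of the 7 genes below 0, 5 were on dim probe sets, and the others were Rplp2 and Rps9, a small subunit protein with 4228 in DSS and 3986 in DSSPAR (-0.085). Rpl39, a small protein at the exit tunnel, read 64.6 in DSS and 40.3 in DSSPAR (-0.68), and Rpl12, at the base of the stalk, 100.5 and 81.4 (-0.30).

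**Figure D2:**
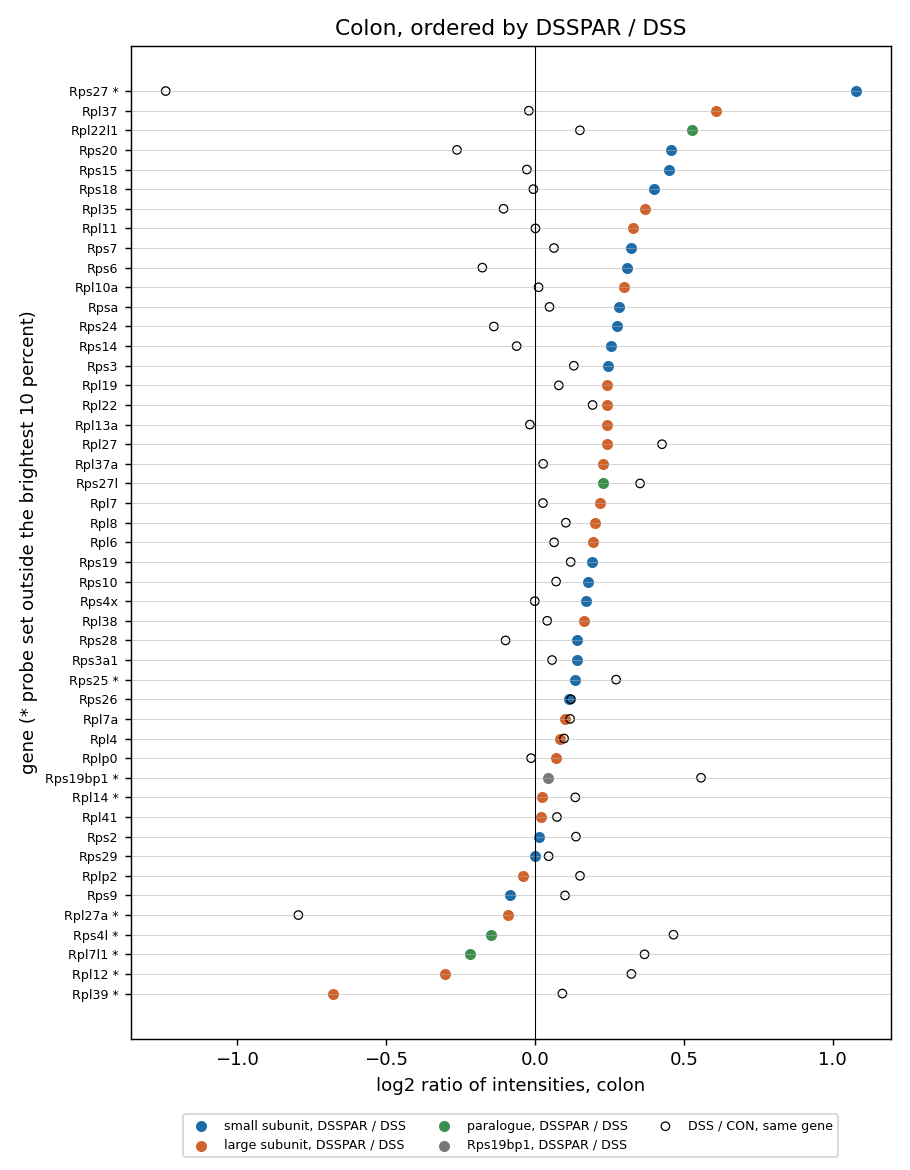
Log2 ratio of intensities in colon (horizontal axis) for the 47 measured ribosomal protein genes (vertical axis), ordered by DSSPAR over DSS. Filled points are DSSPAR over DSS, coloured by subunit, open points DSS over CON in the same gene, and asterisks mark genes outside the brightest 10 percent. Filled points lie above 0 for 40 of 47 genes, while open points scatter around 0. The comparisons share the DSS array.

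Array controls had the same direction in colon. The 9 probe sets for the bacterial and phage hybridisation controls, which are added to every sample, had a median log2 ratio of 0.19 for DSSPAR over DSS in colon (0.057 to 0.25). The 171 other genes in the brightest 1 percent had a median of 0.16. When the arrays were centred on such bright probe sets, the ribosomal protein median was 0.042 and the median of all genes -0.16. After quantile normalization these medians were 0.075 and 0.039. The 18S ribosomal RNA probe set toward the 5' end read 6156 in CON, 4018 in DSS and 390.4 in DSSPAR. The part of these differences in the result was not tested.

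DSSPAR against CON in colon gave a median of 0.24 (quartiles 0.14 and 0.33), against 0.027 over 11808 genes. The ratio was above 0 for 44 of 47 genes, against 52.6% of all genes, and for 38 of 38 genes in the brightest 10 percent. The 171 other genes in the brightest 1 percent had a median of 0.20, with 135 above 0. Centred on such bright probe sets, the ribosomal protein median was 0.013, with 25 of 47 above 0. None was at least 2-fold higher or lower, where 3.51% and 2.1% of all genes were. At 1.5-fold 4 were higher, where 11.3% of all genes were: Rpl22l1 (0.68), Rpl27 (0.67), Rps19bp1 (0.60) and Rpl37 (0.59). Another 2 were lower, where 8.37% were: Rpl27a, with 273.2 in CON and 147.7 in DSSPAR (-0.89), and Rpl39 (-0.59), both on dim probe sets. Of the 47 genes, 27 (57.4%) had the order DSSPAR, DSS, CON from high to low, against 19.6% of all genes. Another 12 (25.5%) had the order DSSPAR, CON, DSS, against 11.2%. Both orders were counted on the deposited values alone.

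The factors that build ribosomes had a different pattern in colon. Of 62 biogenesis genes in a fixed list, 60 were measured. In DSS 55 of 60 were higher than in CON, with a median of 0.36, against 54.1% of all genes. A single gene passed 2-fold: Nhp2, a protein of the box H/ACA particles that guide pseudouridylation, read 433.6 in CON and 935.0 in DSS (1.11). Bysl, needed for small subunit maturation, read 46.1 and 88.9 (0.95). Fbl, the methyltransferase of the box C/D particles, read 380.4 and 710.9 (0.90). In DSSPAR 46 of 60 were lower than in DSS, with a median of -0.22, against 51.7% of all genes. Fbl read 421.4 in DSSPAR (-0.75), its partners Nop58 and Nop56 read 319.6 against 524.5 (-0.71) and 224.8 against 336.9 (-0.58), and Bysl read 58.2 (-0.61). None of the 60 passed 2-fold there. Biogenesis genes were dimmer, with a summed intensity in DSS of 23730 for 61 genes, against 215396 for the 50 ribosomal protein genes. The part of this difference in brightness was not tested.

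Centring shifts both lists alike, so quantile normalization is the scaling that could change the gap between them. After it the medians for DSS against CON were 0.31 for biogenesis and 0.042 for ribosomal proteins, and for DSSPAR against DSS -0.12 and 0.075. Over the 6 scalings the biogenesis medians ran from 0.24 to 0.44 and from -0.37 to -0.019. Proliferation markers moved with these genes: all 10 of the 10 measured were higher in DSS (median 1.02), all 10 were lower in DSSPAR than in DSS (-0.28), and their summed intensity was 2907, 6159 and 5102 in CON, DSS and DSSPAR. Their part in the biogenesis values was not tested.

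**Figure D3:**
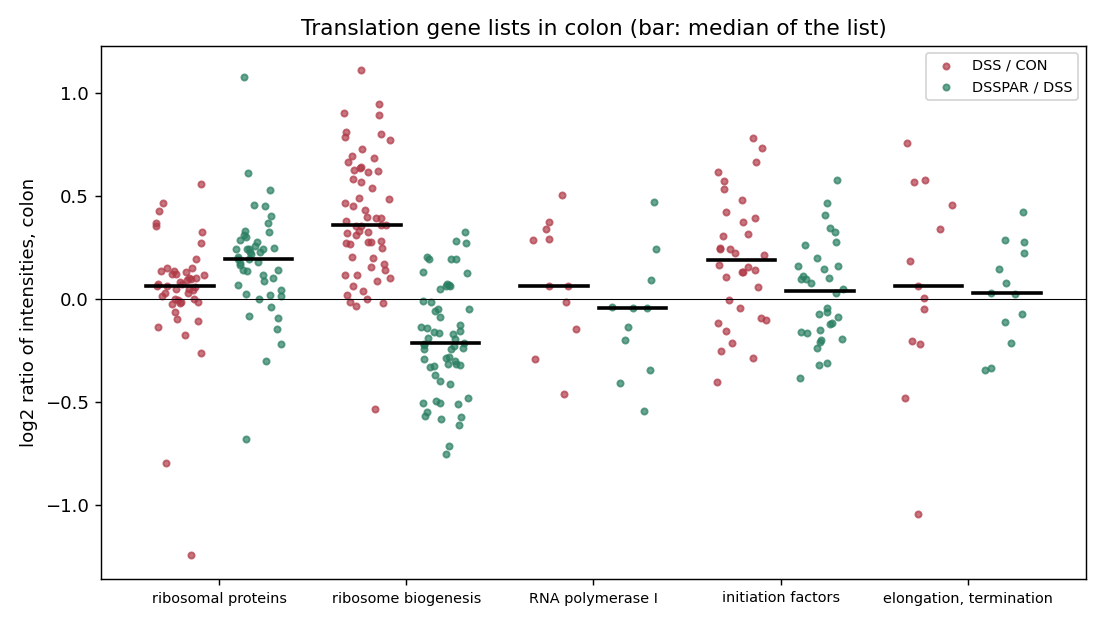
Log2 ratio of intensities in colon (vertical axis) for ribosomal proteins and 4 fixed lists of translation genes (horizontal axis). Red points are DSS over CON, green points DSSPAR over DSS, and bars the median of each list. Biogenesis genes have medians of 0.36 and -0.22, and ribosomal proteins 0.064 and 0.19, of which 0.064 turns below 0 when centred on other bright probe sets.

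Other translation lists in colon lay closer to 0. The 34 initiation factors measured had medians of 0.19 for DSS against CON (24 of 34 higher) and 0.040 for DSSPAR against DSS, of which 0.040 turned below 0 under some scalings. The 13 elongation and termination genes had medians of 0.064 and 0.030, and the 11 genes of RNA polymerase I, which transcribes ribosomal RNA, 0.063 and -0.046. Each of these 4 medians changed sign under another scaling, to -0.059 and -0.12 for elongation and termination and to -0.059 and 0.15 for RNA polymerase I. Of the growth regulators, among them the mTOR pathway, Myc and the p53 axis, 16 were measured for DSS against CON with a median of 0.004, and 17 for DSSPAR against DSS with -0.022. Myc, a transcription factor that drives ribosome biogenesis, read 120.4 in CON, 146.4 in DSS and 94.9 in DSSPAR. Of 7 ribosome-associated or fused genes outside the symbol rule 5 were measured. Among them Fau, which encodes the Rps30 protein fused to a ubiquitin-like part, read 5375, 5237 and 5638.

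In liver, the sulphate treatment went with higher values of ribosomal protein genes. The median log2 ratio of DSS to CON was 0.18 over 48 genes (quartiles 0.01 and 0.44), against -0.018 over 13034 genes. It was above 0 for 36 of 48, against 48.6% of all genes. Centred on the other probe sets in the brightest 1 percent, the median was 0.059, with 30 of 48 above 0. A single gene was at least 2-fold higher, where 4.73% of all genes were, and none at least 2-fold lower, where 4.2% were. At 1.5-fold 5 were higher and 2 lower, where 14.2% and 14.9% of all genes were. The 2-fold higher gene was Rpl22l1, with 23538 in CON and 55910.1 in DSS (1.25). Rpl41, a very short large subunit protein, read 31145 and 51528 (0.73). Rpl13a, a large subunit protein also known from the interferon-induced GAIT complex, read 63322 and 99901 (0.66). The lowest among bright probe sets was Rps2, at the mRNA entry side of the small subunit, with 37149 and 31414 (-0.24).

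In DSSPAR the liver values of these genes were lower than in DSS. The median log2 ratio was -0.28 (quartiles -0.64 and 0.022), against -0.019 over 12398 genes. It was below 0 for 35 of 48 genes, against 51.5% of all genes. At least 2-fold lower were 8 of 48, where 4.23% of all genes were, and none was at least 2-fold higher, where 2.8% were. At 1.5-fold 14 were lower and none higher, where 15% and 12.8% of all genes were. Other bright genes also tended to be lower. Of the 225 other genes in the brightest 1 percent, 15 were at least 2-fold lower and 0 at least 2-fold higher. At 1.5-fold 63 of these 225 were lower and 6 higher. The median was -0.25 in the small subunit and -0.32 in the large subunit.

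Rpl22l1 stood apart with 23538 in CON, 55910.1 in DSS and 12645 in DSSPAR, which is 4.42-fold lower in DSSPAR than in DSS (-2.14). DSS was the high array and DSSPAR lay below CON. Its paralogue Rpl22 read 42374, 62026 and 26637 (-1.22). The probe sets of Rpl22 disagreed in size, with log2 ratios from -2.65 to -0.047. Rps27l read 44974, 56967 and 26384 (-1.11), and its 3 probe sets lay between -1.22 and -1.11.

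In the small subunit, Rps7, which can also bind Mdm2, read 56092, 83252 and 31792 (-1.39) and its other probe set gave -1.44. Rps14, near the platform, read 63692, 94242 and 40709 (-1.21). Rps3, at the mRNA entry, read 26237, 36144 and 14934 (-1.28). Its dimmer probe sets gave -0.13 and 0.36, so the call for Rps3 rests on 1 shared-type probe set. In the large subunit, Rpl13a read 63322, 99901 and 42429 (-1.24), and its 4 probe sets lay between -1.37 and -1.09. Rpl41 read 31145, 51528 and 23046 (-1.16), and its dimmer probe sets gave -0.83 to -0.50. All 8 of these genes had the order DSS, CON, DSSPAR from high to low. Their choice fixed DSS above DSSPAR, so only the place of CON was free. All 8 were represented by shared-type probe sets, as were 33 of the 39 bright ribosomal protein genes in liver. The unshared probe sets measured for these 8 genes gave -2.65 in Rpl22, -0.50 in Rpl41, and -0.13 and 0.36 in Rps3.

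A set of other bright members stayed nearly level. Rpl4, which lines the exit tunnel, read 25539 in CON, 24740 in DSS and 25065 in DSSPAR. Rps4x, an X-linked small subunit protein, read 22107, 21886 and 24140.0. Rpl7 read 21197, 22369 and 21905 on its brightest probe set, but its other bright probe sets gave 0.27 and 0.93 for DSSPAR over DSS. Rpl8, near the peptidyl transferase centre, read 12395, 11852 and 14244 (0.27 for DSSPAR over DSS). In all, 18 of 48 genes lay within 1.2-fold between DSSPAR and DSS. That share over all genes is not given, and their quartiles were -0.38 and 0.33. Rps6 was higher in DSSPAR than in DSS and CON, with 1084, 1660.0 and 2001. Rplp0, often used as a reference gene, was among the lower ones, with 36516, 49545 and 28707 (-0.79). A start was given for 7 of the genes at least 2-fold lower. Of these, 0 had a C at the annotated start followed by 4 bases C or T, against 18.2% of the 44 member genes. The CGGAAG motif was found in 4, against 70.5%. With 7 genes, no difference from those shares can be read.

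**Figure D4:**
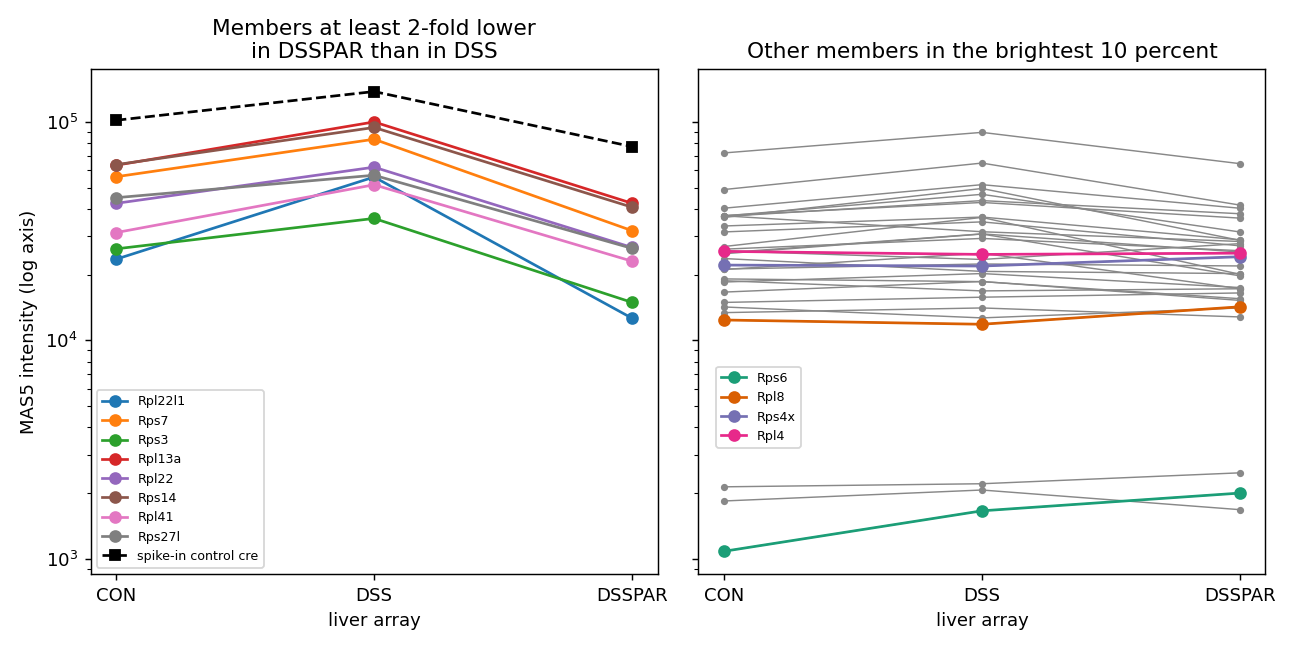
MAS5 intensity on a log axis (vertical) in the 3 liver arrays (horizontal). The left panel has the 8 ribosomal protein genes that in DSSPAR lay at least 2-fold under DSS, with the spike-in control cre as a dashed line, and the right panel the other members in the brightest 10 percent, with 4 of them coloured. Rpl22l1 runs from 23538 to 55910.1 to 12645, cre runs the same way (101682, 137598 and 77066), and Rpl4 is nearly level.

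The spike-in controls moved the same way in liver as these 8 genes. Their median log2 ratio was 0.57 for DSS over CON and -1.06 for DSSPAR over DSS (-1.22 to -0.84), and the cre control read 101682, 137598 and 77066. The 225 other genes in the brightest 1 percent had medians of 0.11 and -0.28, with 171 of 225 below 0 in DSSPAR against DSS. Centred on them, the ribosomal protein median for DSSPAR against DSS was -0.0365, while the median of all genes was 0.21, and 3 members were at least 2-fold lower. After quantile normalization it was -0.051, against 0.008 over all genes, with 2 at least 2-fold lower. Shares over all genes are not given for these rescaled counts. The 18S probe set toward the 5' end read 65529, 93321 and 58100.4, and the actin ratio of 3' to 5' probe sets 3.55, 3.53 and 2.63. Hepatocyte markers had medians of 0.51 and -0.67, with 6 of 6 lower in DSSPAR than in DSS and sums of 454462, 631793 and 388074. The part of these differences in the ribosomal protein values was not tested, and fewer cells of a type and less RNA per cell cannot be told apart in pooled tissue.

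DSSPAR against CON in liver gave a median of -0.16 over 47 genes (quartiles -0.41 and 0.027), against -0.04 over 12721 genes, and it turned to 0.14 when the arrays were centred on the median of all probe sets. It was below 0 for 34 of 47 genes, against 53.8% of all genes. Just 1 gene was at least 2-fold higher, where 3.26% of all genes were, and 1 at least 2-fold lower, where 3.45% were, both on dim probe sets. At 1.5-fold 2 were higher and 8 lower, where 11.2% and 13.4% of all genes were. Rpl14, a large subunit protein, read 137.0 in CON, 244.2 in DSS and 302.9 in DSSPAR (1.14 over CON). Rps27 read 398.3, 204.9 and 134.4 (-1.57). The order DSS, CON, DSSPAR held for 26 of 48 genes (54.2%), against 18.3% of all genes, counted on the deposited values alone.

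**Figure D5:**
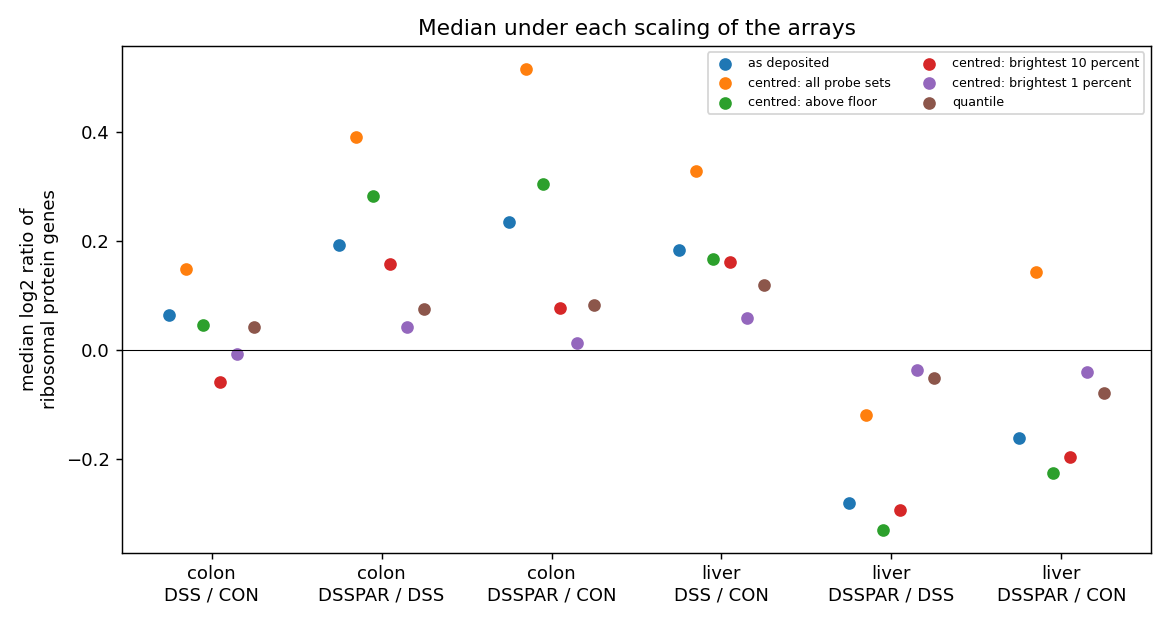
Median log2 ratio of the ribosomal protein genes (vertical axis) in the 6 comparisons (horizontal axis) with the intensities as deposited and under 5 other scalings (colours). The sign changes for colon DSS against CON, to -0.058 and -0.0075 when centred on other bright probe sets, and for liver DSSPAR against CON, to 0.14 when centred on all probe sets. In DSSPAR against DSS all 6 values are above 0 in colon and below 0 in liver.

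Most translation lists had medians slightly above 0 in liver where the ribosomal proteins lay below it, with many of their genes on each side. For DSSPAR against DSS, 59 biogenesis genes had a median of 0.085 and 34 initiation factors 0.14, both above 0 under all 6 scalings. Above 0 were 32 of 59 and 20 of 34, against 6011 of 12398 genes. Centred on the brightest 1 percent, the median of all genes was itself 0.21. The lists were also dimmer. Summed intensities in liver DSS were 79575 for 61 biogenesis genes and 195658 for 34 initiation factors, against 1435743 for the 50 ribosomal protein genes. Other genes in the brightest 1 percent had a median of -0.28 as deposited, and the part of brightness in this contrast was not tested. The 12 elongation and termination genes had a median of -0.077, with 8 of 12 below 0 as most ribosomal proteins were, and it turned above 0 under 3 of the scalings (0.037 to 0.17). The 10 genes of RNA polymerase I had a median of 0.088, with 6 above 0. The 17 growth regulators had a median of 0.39, with 11 above 0. Of the growth regulators Mdm2, the ubiquitin ligase of p53, read 734.9 in CON, 320.9 in DSS and 741.3 in DSSPAR, and Cdkn1a, a p53 target, read 154.9, 379.5 and 188.4. Fau read 23384 in CON, 22442 in DSS and 18265 in DSSPAR. Nip7, a biogenesis factor, read 1605, 3313 and 1031 and so had the order of the 8 lower ribosomal protein genes.

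Colon and liver differed in direction for many of these genes. Between DSSPAR and DSS, 29 of 47 (61.7%) were higher in colon and lower in liver, against 24.8% of 10463 genes, and 2 of 47 the reverse. Between DSSPAR and CON 31 of 47 (66%) were, against 26.5%, and 0 the reverse. These counts moved with the scaling. Centred on the brightest 1 percent they were 15 of 47 (31.9%, against 10.5%) and 14 of 47 (29.8%, against 13%), and after quantile normalization 17 (36.2%, against 27.5%) and 18 (38.3%, against 28.2%). Centred on all probe sets they were 27 (57.4%, against 27.7%) and 15 (31.9%, against 19.5%). The spike-in controls also differed in direction between DSSPAR and DSS, with a median of 0.19 in colon and -1.06 in liver, and their part was not tested. All 8 genes at least 2-fold lower in liver were higher in colon, by 0.021 (Rpl41) to 0.53 (Rpl22l1). So were 40 of all 47 members, and 36 of the 38 in the brightest 10 percent, to which the 8 belong. With deposited values scaled apart in the tissues, levels were compared only relative to the median ribosomal protein gene. In CON, over 44 genes, the quartiles of that relative ratio of colon to liver were -0.48 and 0.26. The lowest were Rps27l (-1.97), Rpl39 (-1.89, on a dim probe set in both tissues) and Rpl22l1 (-1.14), which were relatively higher in liver. The highest were Rpl14 (1.68), Rps25 (1.36) and Rpl12 (1.17), all on dim probe sets. For Rpl22l1 the same quantity was -2.15 in DSS and 0.047 in DSSPAR, so it followed the liver values above.

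Agreement between probe sets of a gene is a check on single genes. It cannot check a shift of a whole array, because such probe sets share the array and its scaling. A shift of most values to one side gives equal signs by itself, and the share over all genes is not given. Among 18 genes with at least 2 probe sets in the brightest 10 percent, all such probe sets had the same sign in 13 for colon DSSPAR against DSS and in 14 for liver DSSPAR against DSS, but in 8 for colon DSS against CON. The counts were 15 for colon DSSPAR against CON, 15 for liver DSS against CON and 11 for liver DSSPAR against CON. The median range between such probe sets was 0.13 to 0.29 across the 6 comparisons. This is about the size of the colon shifts. Rps15, of the small subunit head, gave 0.45 and -0.25 in colon DSSPAR against DSS, and Rps9 gave -0.085 and 0.52. In liver Rpl22 had the largest range, 2.60.

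The tissue markers fitted the labels: 8 of 8 colon epithelium markers were above the floor in all colon arrays, and 6 of 6 hepatocyte markers in all liver arrays. Some markers of the other tissue were also above the floor in all arrays of a tissue. These were Apob, Ttr and Cps1 in colon, and Car1 and Lgals4 in liver. In colon DSS against CON, leukocyte markers were 2-fold higher in 7 of 7 (median 1.70, sums 978.9, 3016 and 2953 in CON, DSS and DSSPAR), neutrophil markers in 2 of 3 measured (5.06), exocrine pancreas markers in 6 of 8 (3.60, and -3.60 for DSSPAR against DSS) and squamous markers in 4 of 6 (1.13). Of the 6 squamous markers 1 was at least 2-fold lower. Medians there were -0.19 for colon epithelium, -0.28 for smooth muscle, 0.30 for B and plasma cells and 0.33 for T cells. The B and plasma cell genes were 3 higher and 2 lower. Just 2 of 6 T cell genes were measured, and the T cell sum was 118.1 in CON and 121.0 in DSS. In liver DSS against CON, the medians were 4.44 for neutrophil, 0.61 for leukocyte and 1.01 for proliferation markers. They were 0.082 for exocrine pancreas and 0.047 for squamous markers. Below 0 were B and plasma cells (-0.29, 5 genes measured), T cells (-0.47, 3), smooth muscle (-0.22, 3) and colon epithelium (-0.88, 3). Their part in the ribosomal protein values was not tested.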

How the data were processed

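Affymetrix Mouse Genome 430 2.0 arrays measured 45101 probe sets in 6 samples. The deposited values are intensities on a linear scale made with MAS5, which scales each array by 1 factor, per the submitters' processing notes. Neither its version nor its scaling target is given in the sources used here. With 1 array per group, no test was run, and the number of arrays limits the precision. All columns were matched to samples by their labels.

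Gene symbols came from the array annotation. The 9211 probe sets it does not list and the 932 with several symbols were left out. A gene was represented by the probe set with the highest mean of log2 intensities within a tissue. It entered a comparison if at least 1 of the 2 arrays exceeded the floor, the 50th percentile of the tissue's arrays, and lower values were raised to it. Log2 ratios were summarised by medians and by counts past 2-fold, beside the same over all genes. Promoter sequences came from RefSeq, GRCm38.p6.

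The members and gene lists were chosen with earlier results of these data known. Any member could be named. A rule picked, per comparison, the 4 highest and 4 lowest genes at or above the 60th percentile whose probe sets shared the sign. Not all genes it picked are given, such as Rpl27a and Rps19bp1 in colon DSS against CON. Some genes given did not meet it, such as Rps20 and Rpl27 in that comparison. Paralogue pairs, well-known subunits and up to 4 genes per pathway list could also be named. Rpl4, Rps4x, Rpl7, Rpl8, Rps3, Rps14, Rps15, Rps9, Rps20 and list genes outside that limit were chosen after their values were seen. Alternatives were other floors, scalings, probe set rules and a 1.5-fold threshold. Python 3.11.15, NumPy 2.4.6, pandas 2.3.3 and matplotlib 3.10.9 were used, and the ratio step was tested on simulated data.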

Additional observations from a re-analysis of the deposited data

Results flagged for a closer look

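The listed values have opposite signs in colon and liver under the same contrast, in genes at least 2-fold apart in 1 of the tissues or in the median. With 1 array per group the difference between tissues was not tested. For DSSPAR against DSS the median log2 ratio of ribosomal protein genes was 0.19 in colon and -0.28 in liver. The spike-in controls had medians of 0.19 and -1.06 for the same comparison, and their part in these values was not tested. For DSSPAR against CON it was 0.24 and -0.16, of which -0.16 changes sign when centred on all probe sets.

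For DSSPAR against DSS, the colon and liver ratios were 0.53 and -2.14 in Rpl22l1, 0.32 and -1.39 in Rps7, 0.25 and -1.28 in Rps3, and 0.24 and -1.24 in Rpl13a. They were 0.24 and -1.22 in Rpl22, 0.26 and -1.21 in Rps14, 0.021 and -1.16 in Rpl41, and 0.23 and -1.11 in Rps27l. Rps27, on a dim probe set, had 1.08 and -0.61.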

How the results depend on the processing

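No paired analysis was possible because each group has 1 array per tissue and the labels carry no replicate numbers. Of 238 summary values recomputed, 161 kept their direction and stayed near the deposited-scale value, 74 moved and 3 changed sign; of 560 single-gene values, 548 stayed and 12 moved, by the spread between probe sets of a gene. The cause was not tested. For the recomputed counts past 2-fold below, the share over all genes is not given, so they do not set the members against other genes. Centring on the brightest 1 percent, adding probe sets with several symbols, keeping the brightest 10 percent, and rescaling the counts of genes higher in colon and lower in liver were chosen after seeing the data. Those counts, 29 of 47 for DSSPAR against DSS and 31 of 47 against CON, were 15 and 14 when centred on the brightest 1 percent and 17 and 18 after quantile normalization, and the second was 15 when centred on all probe sets.

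Centred on the median of all probe sets, the medians in colon were 0.15, 0.39 and 0.52 for DSS against CON and for DSSPAR against DSS and against CON, and in liver 0.33, -0.12 and 0.14, the last with a changed sign and 2 genes at least 2-fold higher. This scaling moved the median of all genes to 0.12, 0.18 and 0.30 in colon and 0.12, 0.13 and 0.25 in liver, so that members lay 0.024, 0.21, 0.22, 0.21, -0.25 and -0.11 from it. Centred on probe sets above the floor, medians were 0.28 and 0.305 in colon DSSPAR against DSS and CON, and -0.23 in liver DSSPAR against CON, with 2 lower. Centred on the brightest 10 percent of other probe sets, colon DSS against CON changed sign to -0.058, and colon DSSPAR against CON was 0.077 with 1 lower. Centred on the brightest 1 percent, colon medians were -0.0075 (changed sign), 0.042 (0 higher) and 0.013 (1 lower), and liver medians 0.059 (1 lower), -0.0365 (3 lower) and -0.041 (2 higher). Quantile normalization gave 0.075 and 0.082 in colon DSSPAR against DSS and CON, and -0.051 (2 lower) and -0.080 (2 lower) in liver.

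Without shared-type probe sets, 22 genes gave 0.034 for colon DSSPAR against DSS and 21 gave 0.15 for DSSPAR against CON. In liver this gave 0 higher and 1 lower for DSS against CON, 2 lower for DSSPAR against DSS, and -0.29 with 3 lower for DSSPAR against CON. With every probe set on its own, liver DSS against CON gave 0.29 with 2 lower, DSSPAR against DSS -0.36 with 17 lower, and DSSPAR against CON 2 higher and 3 lower. With probe sets of several symbols added, the liver median was -0.36 for DSSPAR against DSS, 0 were higher for liver DSSPAR against CON, 0 lower for colon DSS against CON and 0 higher for colon DSSPAR against DSS. These last 3 counts were also 0 in the brightest 10 percent alone, as was the count lower for liver DSSPAR against CON.

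A 1.5-fold threshold gave 2 lower in colon DSS against CON, 2 higher and 1 lower in DSSPAR against DSS, and 4 higher and 2 lower in DSSPAR against CON. In liver it gave 5 higher and 2 lower, 14 lower, and 2 higher and 8 lower. A floor at the 75th percentile gave 0 lower for colon DSS against CON, 0 higher for colon DSSPAR against DSS, and 0 higher and 0 lower for liver DSSPAR against CON. With no floor, 2, 1 and 1 were lower in the 3 colon comparisons, and in liver 1 lower, 1 higher and 2 lower.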
